A study of Mus musculus with 12 samples.

Results

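The regions described here are the 107 genomic regions at which normal liver of an arsenite line differed in DNA methylation from normal liver of a control line, out of 1711 regions that the study listed for 3 liver tissues. They are all entries of the authors' deposited table for the comparison of the groups CCN and AAN, of either sign and with no further threshold. The mice were C3H/HeN males of the second generation (F2). In group AAN their F1 parents had been exposed to arsenite in the womb, and group CCN is the control line without that exposure. Each group had 3 samples described as normal liver. The AAN samples came from mice aged 74 weeks, and the CCN samples belong to an earlier deposit whose labels were not used here, so that line and deposit cannot be told apart. Whether the 3 samples of a group are 3 mice is not stated in the labels.

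DNA methylation in mammals is placed mostly on the cytosine of CpG dinucleotides. Methylation of a CpG-rich promoter usually accompanies silencing of its gene, whereas gene bodies and intergenic sequence are methylated in most tissues. Imprinted genes are a special case, in which the copies from the mother and the father carry different methylation. Inorganic arsenic is methylated in the liver with S-adenosylmethionine, which is also the methyl donor for DNA.

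The assay was reduced-representation bisulfite sequencing (RRBS). DNA is cut by MspI at CCGG, short fragments are treated with bisulfite, and cytosines that still read as C are counted as methylated. Each entry of the deposited table gives 1 difference in percentage points for a whole comparison, the number of CpG sites in the region and the number of these called differentially methylated (DMCs). No per-sample value, read depth or error is given, so no SD, interval or test of a single region was possible. A positive difference is read here as higher methylation in the arsenite line, a sign that the sources used here do not define. If the authors coded it the other way, every direction below turns over. The tissue is bulk liver, so a shift in the makeup of cells and a change within cells cannot be told apart, and the tissue label could not be checked against marker levels.

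The sequences that follow show what the listed regions look like at promoters, as far as RefSeq promoter windows were at hand (250 bases before to 50 after a gene start, build GRCm38.p6, for 76 of the listed genes). Of the 107 regions, 3 reached such a window and a 4th lay beside that of the imprinted gene Peg3. The count leaves out regions at a listed start that reached no window at hand, such as those at Arg1, Zfp750 and Ccdc8. The first sequence is the window of Rusc1 (chr3:89093314-89093613, minus strand), whose capitals mark the 101 bases inside the listed region. The second is the window of the noncoding gene Gm38732 (chr5:142509355-142509654, plus strand), whose capitals mark the whole listed region of 68 bases, named after Papolb in the table and also inside Radil. The third is the window of Peg3 (chr7:6730370-6730669, minus strand), whose capitals mark CpGs. The listed Peg3 region ends 69 bases short of that window, inside the gene. The last is the mature microRNA of Mir5046 (chr19:6829917-6829940, minus strand), whose gene is nearest to the region with the second-lowest difference. Its capitals mark the seed, bases 2 to 8.
Rusc1 window: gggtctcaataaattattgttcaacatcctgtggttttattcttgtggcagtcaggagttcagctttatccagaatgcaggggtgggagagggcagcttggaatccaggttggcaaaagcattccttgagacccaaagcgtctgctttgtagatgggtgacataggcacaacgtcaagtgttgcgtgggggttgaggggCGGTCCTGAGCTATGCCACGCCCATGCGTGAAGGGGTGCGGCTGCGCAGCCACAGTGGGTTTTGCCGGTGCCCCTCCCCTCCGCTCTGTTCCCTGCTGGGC
Gm38732 window: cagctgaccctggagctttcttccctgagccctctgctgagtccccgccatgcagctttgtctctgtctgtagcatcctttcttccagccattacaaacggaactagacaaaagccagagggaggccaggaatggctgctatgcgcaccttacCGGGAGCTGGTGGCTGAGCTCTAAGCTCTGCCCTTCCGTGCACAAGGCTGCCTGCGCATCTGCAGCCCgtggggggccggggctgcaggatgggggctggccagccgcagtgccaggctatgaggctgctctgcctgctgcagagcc
Peg3 window: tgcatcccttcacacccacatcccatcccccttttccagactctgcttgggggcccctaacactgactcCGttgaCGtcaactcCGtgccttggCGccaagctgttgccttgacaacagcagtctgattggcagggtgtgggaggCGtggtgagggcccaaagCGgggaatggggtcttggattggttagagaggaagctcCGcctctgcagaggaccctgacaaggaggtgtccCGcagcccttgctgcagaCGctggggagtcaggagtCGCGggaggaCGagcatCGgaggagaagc
mmu-miR-5046: aGCUCCCGccacugugacccccuu

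The Rusc1 window held 10 CpGs, and 7 of these lay in the stretch that the listed region covers, although only 4 sites were listed for the region. In Gm38732 the listed region held 4 CpGs and 4 listed sites. The Peg3 window held 13 CpGs, against a median of 7 over 32851 promoter windows, and 37.9% of all windows held as many or more. The MspI motif CCGG, which reads the same on both strands, occurred once in the Rusc1 window, 2 times in that of Gm38732 and 0 times in that of Peg3. It occurred in 52.8% of all windows. The Rusc1 and Gm38732 differences in the authors' deposited table were -26.8 and -20.3 points. The third region to reach a window did so by 11 bases, at the noncoding gene Gm38647 under the listed name AA619741, and had -23.3 points over 3 sites.

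Negative differences, read here as lower methylation in the arsenite line, were the more frequent ones in normal liver. Of the 107 regions, 74 were negative and 33 positive, a positive share of 30.8% (exact Clopper-Pearson 95% interval 22.3% to 40.5%, which covers counting error over regions only). All differences were at least 20 points, the smallest being 20.04 points at S1pr4 and -20.05 points at Slc16a1. Of the 107, 87 lay below 25 points in size and 4 at 30 points or more. Most regions were small and rested on few sites. The median length was 96 bases (3 to 736), the median number of CpG sites was 4 (3 to 12), and 71 regions had 1 DMC. The number of DMCs was 2 in 23 regions and at least 3 in 13 regions. The shortest region, near Mrps22, had 3 listed sites within 3 bases, which is possible only when the cytosines of both strands are counted as separate sites.

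**Figure D1:**
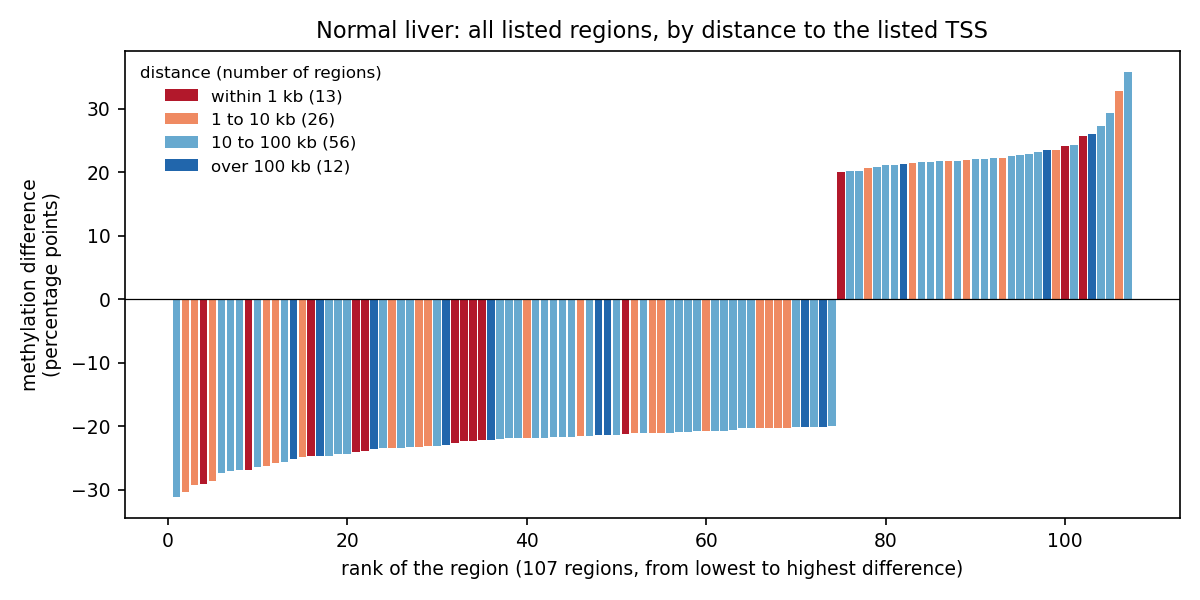
Methylation difference in percentage points (vertical axis) of each of the 107 normal liver regions, ordered from lowest to highest (horizontal axis, rank). The colours give the distance to the listed transcription start site (TSS). The 74 negative bars reach -31.1 points and the 33 positive bars 35.8 points, and every distance class appears on both sides.

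Start sites had 13 regions less than 1 kb away, 10 negative and 3 positive. Of the 107 regions, 74 were negative, so this split is near that of the list. Both regions that lay across a start site were negative. In the authors' deposited table one was at Arg1, the arginase that completes the urea cycle in hepatocytes (chromosome 10, 24927433 to 24927515; -22.2 points, 1 DMC among 3 sites). The other was at Rusc1, which encodes an adaptor protein with RUN and SH3 domains (chromosome 3, 89093289 to 89093414; -26.8 points, 1 DMC among 4 sites). The Zfp750 region ended 2 bp from the TSS (chromosome 11, 121519254 to 121519340; -29.2 points, 3 DMCs among 5 sites). Zfp750 encodes a zinc finger factor of epidermal differentiation, and the span of the tubulin cofactor gene Tbcd holds the region too.

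The regions near a start site with the most CpG sites were also negative. Peg3, a paternally expressed imprinted gene for a zinc finger protein, had 12 sites, the most of any region, and 5 DMCs (chromosome 7, 6729942 to 6730300; -24.0 points, 119 bp downstream of the TSS). Nol3, the gene of an apoptosis repressor, had 10 sites and 5 DMCs (chromosome 8, 105275754 to 105276101; -22.3 points, 346 bp upstream). That region lies inside the span of the heat shock factor gene Hsf4. Htr2a, a serotonin receptor gene, had 6 sites and 3 DMCs (chromosome 14, 74641618 to 74641878; -22.4 points, 778 bp downstream).

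The remaining regions within 1 kb rested on 1 or 2 DMCs each in the authors' deposited table. Clec4e, the gene of the myeloid pattern receptor Mincle, had -22.6 points with 2 DMCs among 5 sites, 693 bp downstream of its TSS. Slc15a3, a lysosomal peptide transporter gene, had -24.1 points with 1 DMC among 4 sites. Ccdc8, whose human counterpart is mutated in a growth disorder, had -21.2 points, 42 bp downstream of its TSS. Gm44 on the X chromosome had -24.8 points, 462 bp downstream. The 3 positive regions there each had 1 DMC. They were at Pcdha11, a clustered protocadherin gene (25.7 points, 273 bp downstream), at the noncoding gene 1600029I14Rik (24.2 points, 436 bp downstream, also inside the span of Nme9) and at S1pr4, a lymphocyte receptor for sphingosine-1-phosphate (20.04 points, 851 bp downstream). The Pcdha11 region lies in the spans of many alpha protocadherin genes that share their last exons, so the listed name is the nearest start rather than the only gene there.

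**Figure D2:**
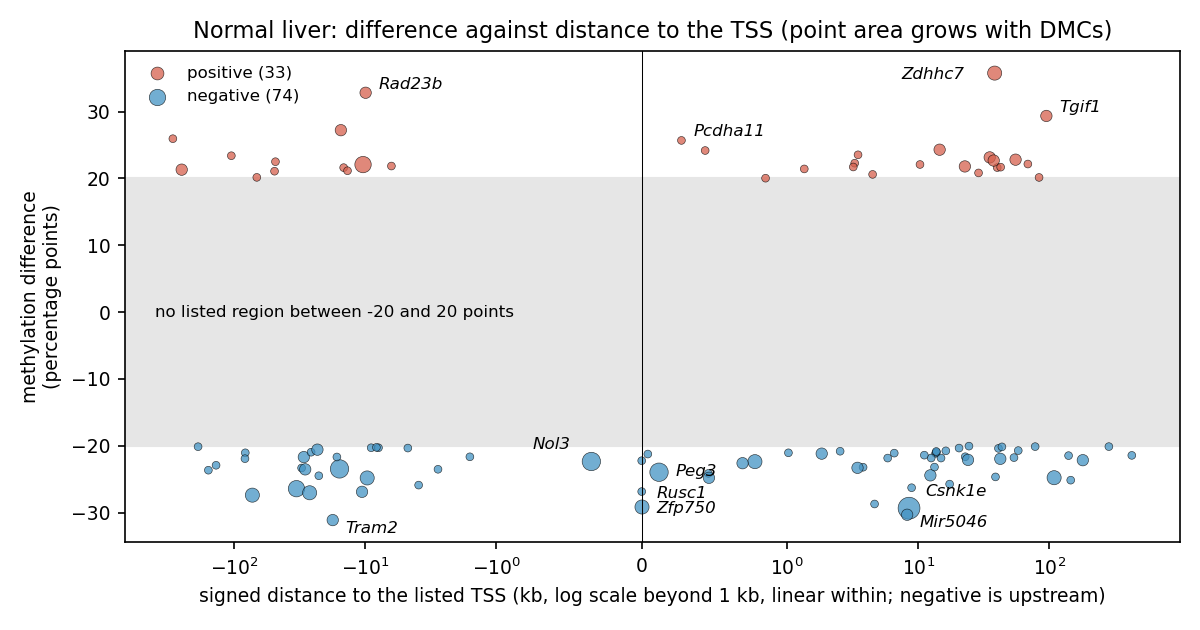
Methylation difference in percentage points against the signed distance from the listed TSS in kb for the 107 regions, with point area growing with the number of DMCs. The labels mark regions named in the text. The grey band holds no regions, since no listed difference is smaller than 20 points, and the point with the most DMCs, Csnk1e with 7, lies at -29.3 points.

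The 4 regions of at least 30 points lay 8230 to 38333 bp from the listed TSS, all outside gene spans. Large differences were not confined to such distances. The median size was 24.0 points within 1 kb of a TSS and 22.1 points over all 107 regions. Highest was the region 38333 bp downstream of the start of Zdhhc7, a palmitoyltransferase gene (35.8 points in the authors' deposited table, all 3 sites DMCs). It was followed by one 9925 bp upstream of Rad23b, a nucleotide excision repair factor gene (32.8 points, 2 DMCs among 4 sites). The lowest lay 17694 bp upstream of Tram2 (-31.1 points), whose product takes part in collagen synthesis at the endoplasmic reticulum. The next was 8230 bp downstream of Mir5046 (-30.3 points). Both of these negative regions had 2 DMCs among 3 sites.

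The rest of the 10 highest differences ran from 29.3 to 23.4 points. A region listed under Tgif1, a homeobox repressor of TGF-beta signalling, lay 95146 bp from its TSS and inside the span of the synaptic scaffold gene Dlgap1 (29.3 points, 2 DMCs among 5 sites). One listed under Slfnl1 lay inside the span of the Polycomb gene Scmh1 (27.2 points). Veph1 had 25.9 points at a distance of 294054 bp. Nolc1, the gene of a nucleolar phosphoprotein, had 24.3 points over 12 bases, with 2 DMCs among 3 sites. Wdr81 had 23.5 points inside its span and Mrps22, a mitochondrial ribosome gene, 23.4 points at 105196 bp. Pcdha11 and 1600029I14Rik complete the 10.

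The rest of the 10 lowest differences included the region with the most DMCs. That region is inside Csnk1e, the casein kinase 1 epsilon gene of the circadian clock (chromosome 15, 79433002 to 79433309), with 7 DMCs among 10 sites and -29.3 points, 8509 bp downstream of the TSS, in the authors' deposited table. Adamtsl2, an extracellular matrix gene, had -28.7 points inside its span, on 1 DMC. Upstream of Nr3c1, the glucocorticoid receptor gene, all 3 sites of a region were DMCs (-27.4 points, 72689 bp from the TSS). Tdrp had -27.0 points with 3 DMCs among 5 sites, in a region inside the span of Gm5907. A region listed under Ttc36 lay inside the span of Kmt2a, which encodes a histone H3 lysine 4 methyltransferase (-26.9 points). One listed under Gad2, a GABA synthesis gene, lay inside Myo3a (-26.4 points, 4 DMCs among 9 sites). Zfp750 and Rusc1 complete the 10.

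Of the 13 regions with at least 3 DMCs, 11 were negative, with a median of -24.8 points, and the 2 positive ones were at Zdhhc7 and Mogat2. Of the 23 regions with 2 DMCs 14 were negative, of the 71 with 1 DMC 49, and of all 107 regions 74, so the sign showed no steady relation to the number of DMCs. The noncoding gene 2010106C02Rik had 5 DMCs among 9 sites in a region inside the kinase gene Prkce (-23.5 points in the authors' deposited table). Mogat2, a monoacylglycerol acyltransferase gene, had 4 DMCs among 7 sites (22.1 points, 10387 bp upstream). BC006965 and Dact2 had 3 each, at -24.8 points. The median size of the difference was 21.6 points over the regions with 1 DMC and 24.8 points over those with at least 3. These counts come from the measurements that put the regions on the list, so they describe it and are no test.

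Genes of hepatocyte metabolism and secretion were listed at regions of both signs. The members of all gene lists were chosen with earlier results of these data known and the lists differ in size, so their counts describe the regions and say nothing of how often such genes were hit. Of 44 hepatocyte genes, 5 were nearest to a region, 3 negative and 2 positive, with a median of -21.1 points, against 74 negative and 33 positive over the whole list. Besides Arg1, the negative ones were Fasn, the fatty acid synthase gene (-21.1 points, inside its span, 1 DMC among 5 sites), and Insig1, which encodes a sterol-regulated brake on lipid synthesis (-21.7 points, 16449 bp upstream). The positive ones in the authors' deposited table were Galt, which converts galactose-1-phosphate (21.4 points, 1349 bp downstream), and Kng2, a kininogen gene (21.7 points, 3192 bp downstream). Each of these 5 regions rested on 1 DMC.

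Other genes that act in liver metabolism were grouped after their values had been seen. Ftcd, which degrades histidine into the folate pool, had -20.8 points in the authors' deposited table, inside the gene and 2534 bp from its start. Rxra, the common partner of hepatic nuclear receptors, had -24.7 points inside its span, 38895 bp from the TSS. Hnf4g, a nuclear receptor gene, was nearest to a region of -21.4 points, but 427164 bp away. Tbc1d1, a regulator of glucose transporter traffic, had -25.9 points over 6 sites inside its span. Slc16a1, the monocarboxylate transporter gene, was nearest to a region of -20.05 points, 24398 bp from its TSS and outside gene spans. Prps1, which makes the precursor of nucleotides, was nearest to one of -20.6 points. That region lay 23166 bp upstream of Prps1, inside the span of Frmpd3. On chromosome 7 the only pair of listed regions less than 500 kb apart stood 92.8 kb from each other and both were positive. One is the Mogat2 region and the other (21.6 points) is listed under Uvrag but lies inside Dgat2, the gene of a triglyceride synthesis enzyme.

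Of the solute carrier and ABC transporter genes, 5 were nearest to a region, 4 of them negative, against 74 negative among all 107 regions. Apart from Slc15a3 and Slc16a1 these were Abca3, a lipid transporter gene (-23.3 points, 2 DMCs among 4 sites, 3439 bp downstream), Abcc12 (-21.8 points, inside its span) and, on the positive side, Slc10a6 (20.1 points, inside the span of the phosphatase gene Ptpn13) in the authors' deposited table. A region listed under Mfsd9 lay inside the sodium-proton exchanger gene Slc9a2 (21.8 points).

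Signalling genes of the ERK and AP-1 list had 2 regions, both negative and distant from the TSS. Such small counts stand beside 74 negative and 33 positive regions over the whole list. Dusp6, a phosphatase that switches off ERK, had -23.5 points 28713 bp upstream, with 2 DMCs among 4 sites. Fosl2, an AP-1 subunit gene, had -21.9 points 82771 bp upstream, inside the span of Babam2. Of the Wnt list the single entry was Dact2, a Wnt signalling regulator gene (-24.8 points, 3 DMCs among 7 sites, 109015 bp from the TSS). The adhesion list had Pcdha11 and Itgb5, an integrin subunit gene (22.8 points, inside its span), both positive in the authors' deposited table, and a negative region inside the cadherin gene Cdh13 that is listed under Hsbp1 (-23.6 points). The circadian, DNA repair, imprinted, zinc finger and microRNA lists had 1 nearest-gene region each, at Csnk1e, Rad23b, Peg3, Zfp750 and Mir5046.

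Other lists had no nearest-gene region. The 24 arsenic metabolism and oxidative stress genes and the 13 developmental factor families had 0 regions, and so did the 13 immune cell markers and the 18 stellate, endothelial and bile duct markers. The 27 DNA methylation and chromatin regulators had 0 by nearest gene and 1 by span, that inside Kmt2a. These lists do not hold every gene of a kind. The chromatin genes Mta1 and Yeats4 were each nearest to a region but were not among the 27. For a gene that is on a list, having no region means only that none there met the authors' criteria at the sites covered.

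Between 1 and 10 kb from a TSS lay 26 regions, 19 negative and 7 positive, and 17 of the 26 lay inside the span of the listed gene. Besides those already named, negative values in the authors' deposited table stood at Vash1, which encodes an angiogenesis inhibitor (-26.3 points), Smtnl2 (-23.2 points), Plekhm1, a lysosome adaptor gene (-21.8 points), Dmkn (-21.2 points), Tfpt (-21.0 points), Mta1, a subunit gene of the NuRD chromatin complex (-20.3 points), Neu2, a sialidase gene (-20.3 points), Theg (-20.3 points) and Atxn10 (-20.2 points, 9 sites with 1 DMC). Positive values stood at Ankrd33 (22.3 points), Lrrc61 (21.9 points) and Tmem189 (20.6 points).

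Between 10 and 100 kb lay 56 regions, 36 negative and 20 positive, of which 14 were inside the span of the listed gene. Their differences ran from -31.1 to 35.8 points. Among those not yet named, the authors' deposited table gave the CXXC zinc finger gene Cxxc5 at -21.8 points in the longest region of the list (736 bases, 6 sites) and the meiotic recombination factor gene Prdm9 at -21.7 points. It gave Cdca7l -23.2 points, Tuba1c, an alpha tubulin gene, -24.4 points over 6 sites and Ppp6r3, a phosphatase subunit gene, -22.0 points with 2 DMCs among 4 sites. It gave Smarcal1, a DNA annealing helicase gene, -20.7 points over 7 sites, 58027 bp from its TSS and inside the span of Gm39662. On the positive side a region listed under H2afy3 lay inside Pvt1, the long noncoding RNA gene beside Myc (22.2 points), one listed under Gm6878 inside the transcription factor gene Ebf2 (23.1 points), and Yeats4, a chromatin reader gene, had 20.8 points.

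Further regions between 10 and 100 kb were named after their values had been seen. In the authors' deposited table Syt6, a synaptotagmin gene, had 22.5 points, Calb2, the calretinin gene, -20.2 points and Dclk1, a microtubule-binding kinase gene, -20.1 points. Otog, an inner ear matrix gene, had -20.8 points inside its span. Nobox, a transcription factor gene of oocytes, had -21.4 points, and Wasf2, an actin regulator gene, -21.6 points inside its span. Pbp2 had -24.5 points. Cuzd1 had -22.1 points with 2 DMCs among 4 sites, in a region 23993 bp from its TSS and inside the span of Cdcp3. The remaining distant ones, Ccdc185, Samd4, Pabpc1, Fam73b, Fam209, Schip1, Aktip, Gm10390 and Gm12669, lay between 20.2 and 22.7 points when positive and between -21.8 and -20.4 points when negative.

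More than 100 kb from any listed TSS lay 12 regions, 9 negative and 3 positive, and 0 of them were inside the listed gene. Fam43a had the lowest value (-25.1 points in the authors' deposited table, 145954 bp away), and Dok5, Sipa1l1 and Tbca lay between -22.2 and -20.1 points. Prok2 had 21.3 points at 251740 bp. For these regions the listed gene is a position rather than a gene with a known tie to the region.

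Noncoding transcripts were the nearest entry of 14 regions, 10 negative and 4 positive, and these include 0610043K17Rik (-23.5 points in the authors' deposited table) and 1700048M11Rik, 1588 bp upstream of its start. On the X chromosome lay 5 regions, 3 negative and 2 positive. One of them was inside Tsix, the antisense transcript that restrains Xist on the X chromosome (-25.7 points in the authors' deposited table, 1 DMC among 4 sites, 17367 bp into the gene). The others were Gm44, Prps1, Gm5936 (21.7 points) and Tmem164 (21.1 points). No region lay on the Y chromosome. Over the autosomes the list was spread thinly, with 1 region on chromosome 13 and 9 on chromosome 7. Negative regions outnumbered positive ones on all autosomes except chromosomes 4 and 9, with more positive ones, and 16, with 2 of each. All 107 regions had different nearest genes.

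**Figure D3:**
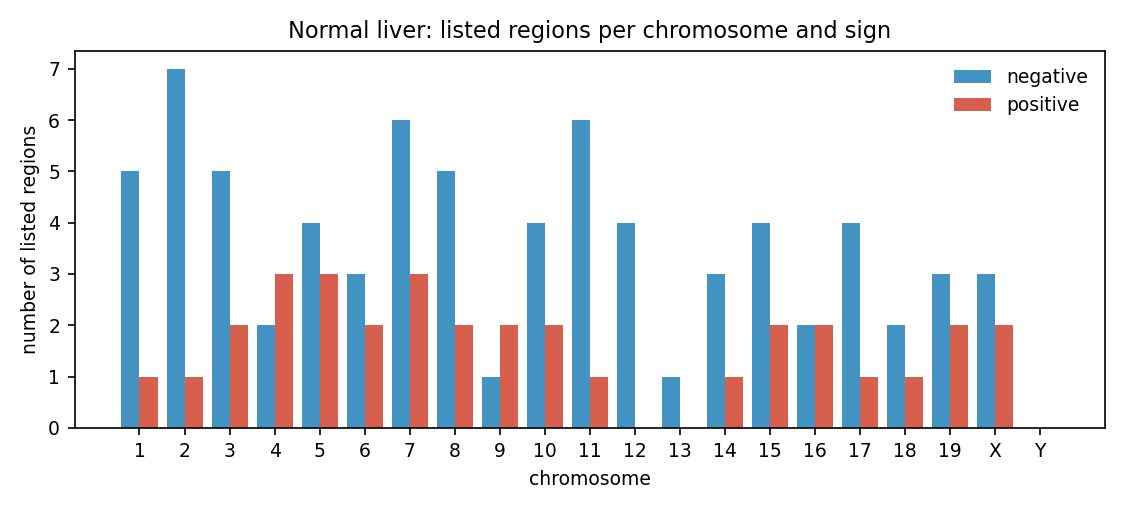
Number of normal liver regions (vertical axis) on each chromosome (horizontal axis), for negative and positive differences. Chromosome 2 had 7 negative and 1 positive region, and chromosome 4 had 2 negative and 3 positive.

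In 0 of 4 features did the difference between positive and negative regions pass the threshold of 0.05. The regions of 1 DMC made up 66.7% of the positive and 66.2% of the negative regions (odds ratio 1.02, adjusted p = 1.0 over 4 features by a two-sided Fisher's exact test). Regions within 10 kb of a TSS made up 30.3% of the positive (exact 95% interval 15.6% to 48.7%) and 39.2% of the negative ones (28.0% to 51.2%), with an odds ratio of 0.675 and an adjusted p = 0.735 by the same exact test. Regions inside a gene span made up 60.6% and 68.9% (odds ratio 0.694, adjusted p = 0.735 by the exact test). The 3 regions with at least 10 CpG sites, Peg3, Csnk1e and Nol3, were all negative, against 0 of 33 positive regions (Fisher's exact test, adjusted p = 0.735). The intervals are wide at these numbers, so a difference of moderate size was not detectable. Regions of 1 comparison share the same 6 samples, so the p-values count regions and not mice. The sign and the number of DMCs come from the measurements that put the regions on the list, so these comparisons only describe it.

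The normal liver list differed from the tumor list of the same lines in each of 4 properties in tests over regions, as deposited. Its positive share of 30.8% stood against 68.7% of 1547 tumor regions (odds ratio 0.203, adjusted p = 3.39e-14 over 2 pairs of lists by Fisher's exact test) and against 59.6% of 57 regions of non-tumor liver (odds ratio 0.302, adjusted p = 4.53e-04 by the exact test). Both contrasts take the sign to mean the same in every list. With the sign of the normal liver list turned over, its positive share would be 69.2%, next to the 68.7% of the tumor list (odds ratio 1.02, adjusted p = 1.0 by the exact test) and the 59.6% of the non-tumor list (odds ratio 1.52, adjusted p = 0.462). The contrasts in sign therefore rest on how the sign was coded. Properties without a sign differed between the lists too. The numbers of DMCs and CpG sites come from the calls that made each list, so their contrasts describe the lists. Whether depth or calling thresholds had a part was not tested. Regions of 1 DMC made up 66.4% of the normal liver list and 35.6% of the tumor list (odds ratio 3.58, adjusted p = 2.15e-09 over 3 features by the exact test). Regions with at least 10 CpG sites made up 2.80% and 13.1% (odds ratio 0.191, adjusted p = 0.00103 by the exact test). Regions within 10 kb of a TSS made up 36.4% and 24.6% (odds ratio 1.76, adjusted p = 0.00822 by the exact test). The controls of the normal and tumor comparisons are both from the earlier deposit. The p-values count regions and not mice, and each list comes from 1 comparison, so they do not show that the tissues differ. With differences of at least 25 points, where 20 normal liver regions remain, 3 of these contrasts were not past the threshold in the exact test. Adjusted p was then 0.498 for CpG sites (3.08e-04 to 0.498 over the alternatives tried), 0.182 for TSS distance (0.00642 to 0.182) and 0.175 for the positive share against non-tumor liver (4.40e-04 to 0.462).

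**Figure D4:**
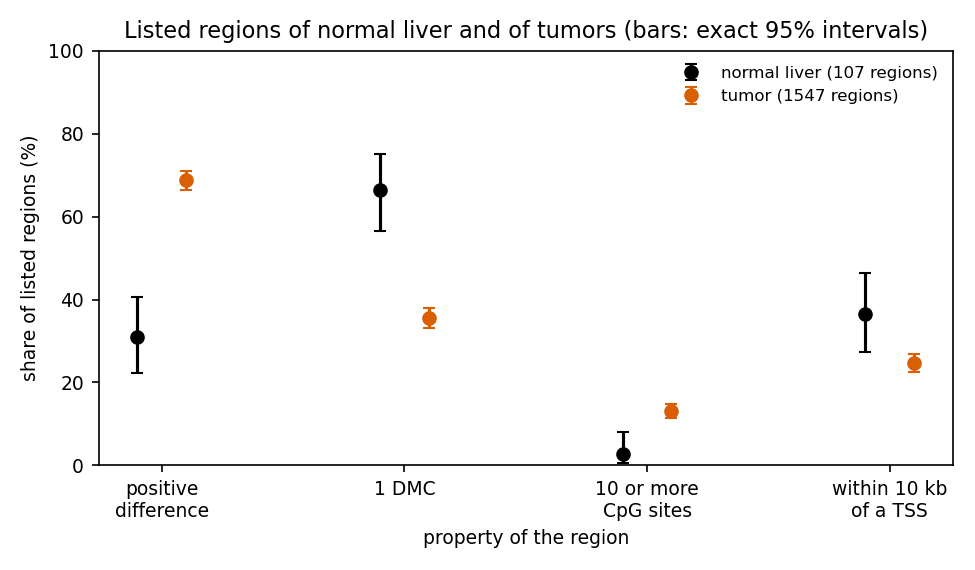
Share of listed regions in percent (vertical axis) with each of 4 properties (horizontal axis) in the normal liver list (107 regions) and the tumor list (1547 regions). Points are shares and bars exact 95% intervals over regions. Normal liver lies lower for positive differences (30.8% against 68.7%) and higher for regions of 1 DMC (66.4% against 35.6%).

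A few positions of the normal liver list appeared in another list as well. Overlap by at least 1 bp was found for 11 regions with the tumor list (10.3% of the normal liver list and 0.711% of the tumor list) and for 3 with the non-tumor list (2.80% and 5.26%). With an overlap of at least 50% of each region the counts were 7 and 1. With the tumor list 5 had the same sign and 6 the opposite one, and with the non-tumor list 2 had the same and 1 the opposite. Positive regions made up 30.8% of the normal liver list, 68.7% of the tumor list and 59.6% of the non-tumor list. Htr2a was the position nearest to a start site among the shared regions, 778 bp inside the gene. It had -22.4 points in normal liver and -35.1 points in tumors, where all 4 sites were DMCs. The other positions with the same sign in tumors were near Slfnl1 (27.2 and 23.3 points), Aym1 (21.6 and 30.4 points), Prps1 (-20.6 and -20.2 points) and 4933406G16Rik (-20.1 and -20.4 points). At 4933406G16Rik the overlap was 22 bases of the 194 in the normal liver region.

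Opposite signs in tumors stood at 6 positions. Dact2, the position found in all 3 of the authors' deposited tables, had -24.8 points in normal liver, 21.1 points in non-tumor liver and 29.2 points in tumors, with 6 DMCs among 7 sites in the last. Gm9199 had -22.9 points in normal liver and 32.7 points in tumors. Mlana, a melanocyte antigen gene, had 22.1 and -27.2 points, and Mfsd9 21.8 and -25.9 points. Pcsk2os2 had -21.1 and 22.0 points, and Gm5936 21.7 and -23.1 points with identical bounds. If the sign were coded differently in the normal liver table, the opposite pairs would become the same and the same would become opposite. With non-tumor liver, Ankrd33 (22.3 and 24.9 points, 9 bases of overlap) and Tmem164 (21.1 and 24.6 points) were positive in both.

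**Figure D5:**
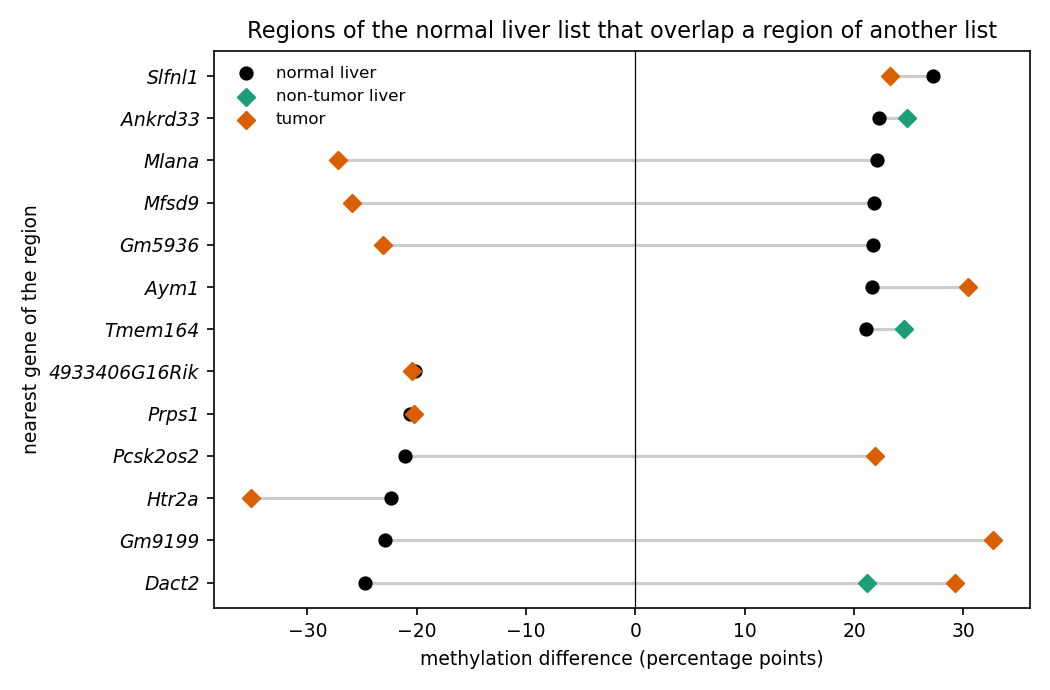
Methylation difference in percentage points (horizontal axis) of the 13 normal liver regions that overlap a region of another list, named by nearest gene (vertical axis). Circles are normal liver and diamonds the other lists, and grey lines join values of 1 position. Htr2a lies on the negative side in both tissues, and Dact2 is negative in normal liver and positive in the other 2.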

How the data were processed

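RRBS libraries were made from 100 ng of liver DNA cut with MspI, per the labels' protocols. Trim Galore, Bismark, methylKit and bedtools 2.25.0 on build mm10 are named in the submitters' processing notes. No source used here names the region caller or its thresholds, and the depth per sample is unknown. The deposited tables hold differences of methylation in percentage points, numbers of CpG sites and DMCs and distances in base pairs, combined over replicates by the authors. In the promoter windows of RefSeq (GRCm38.p6) that hold a listed bound, the base after the listed start was a CpG base in 21 of 21 cases over all 3 lists (1 of 1 in normal liver) and the listed end in 25 of 25, while the listed start itself was in 4 of 21. Starts were therefore taken to count from 0, and printed regions start 1 base after the listed start and are 1 base shorter than listed. In 9 of 10 regions wholly inside a window the listed sites exceeded the CpGs, so sites on both strands were counted there. All 9 are tumor regions, and the 1 normal liver region, listed under Papolb, had 4 sites and 4 CpGs.

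Gene spans came from RefSeq, where 106 of 107 accessions matched and 76 listed genes had a promoter window; exons and UTRs were not told apart. Of the 107 regions, 28 lay only inside the span of a gene other than the listed one, and not every such gene is named above. Shares carry exact Clopper-Pearson 95% intervals. Shares were compared with two-sided Fisher's exact tests (scipy 1.17.1) and Benjamini-Hochberg adjustment within families, at a threshold of 0.05. The test was tried on simulated lists of independent regions, whereas the listed regions share samples. Named are regions within 1 kb of a TSS, the 10 highest and 10 lowest differences, the 10 with the most DMCs, members of gene lists, and regions shared with another list, 54 in all. Others were named after their values had been seen. The gene lists and members were chosen with earlier results of these data known. Alternatives were stricter limits on DMCs and differences, 1 region per gene, autosomes only, other limits for CpG sites and TSS distance, a larger overlap and, added after seeing the data, the sign of the normal liver list turned over.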

Additional observations from a re-analysis of the deposited data

Results flagged for a closer look

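With the signs as deposited, the share of positive regions in normal liver differed from that in the other tissues' lists in a test over regions. The odds of a positive region in normal liver against tumors had a ratio of 0.203 (Fisher's exact test, 33 of 107 against 1063 of 1547 regions, adjusted p = 3.39e-14). Against non-tumor liver the ratio was 0.302 (33 of 107 against 34 of 57 regions, Fisher's exact test, adjusted p = 4.53e-04). These p-values count regions and not mice, and each list comes from 1 comparison of a few samples, so they do not show that the tissues differ. That the sign means the same in every list could not be checked here. With the sign of the normal liver list turned over, 69.2% of its regions would be positive, against 68.7% in tumors and 59.6% in non-tumor liver. The controls of normal liver and tumors came from an earlier deposit and those of non-tumor liver from this one, and the part of the deposit in these contrasts was not tested.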

How the results depend on the processing

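Of 32 alternatives fixed at the start, 26 kept direction and side of the threshold, or stayed within the interval for the share and within 1.5 times for a count. The share of positive regions stayed within its interval, with 30.4% to 30.8% in 3 of its alternatives and 6 of 20 regions at 25 points or more. The contrast of this share with tumors stayed past the threshold in the 4 alternatives fixed at the start. With at least 25 points, 3 contrasts kept their direction and were no longer past the threshold in Fisher's exact test, namely the positive share against non-tumor liver (odds ratio 0.333, adjusted p = 0.175; 4.40e-04 to 0.462 over its alternatives), the share with at least 10 CpG sites against tumors (odds ratio 0.329, adjusted p = 0.498; 3.08e-04 to 0.498) and the share within 10 kb of a TSS against tumors (odds ratio 2.22, adjusted p = 0.182; 0.00642 to 0.182). This alternative leaves 20 normal liver regions. The share with 1 DMC between signs, not past the threshold in any setting, turned to an odds ratio of 0.667 there. With an overlap of at least 50% of each region, shared regions fell to 7 with tumors and 1 with non-tumor liver. In 3 alternatives chosen after seeing the data, the sign of the normal liver list was turned over. Its positive share was then 69.2%, and the odds ratio of that share became 1.02 against tumors (Fisher's exact test, adjusted p = 1.0) and 1.52 against non-tumor liver (adjusted p = 0.462). No paired analysis was possible because the tables hold no per-sample values, and no replicate could be left out for the same reason.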

Other observations

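Several genes nearest to a normal liver region had a further, separate region in the tumor list, 13 genes with 20 such regions in all. Of the 20, 12 had the opposite sign to the normal liver region and 8 the same. Positive regions made up 30.8% of the normal liver list and 68.7% of the tumor list. Pairs of opposite sign are thus common between the lists whatever the gene. If the sign were coded differently in the normal liver list, the counts would change places. Csnk1e, the clock kinase gene, was negative in both of the authors' deposited tables, with -29.3 points inside the gene in normal liver and -32.1 points in tumors at a region 37581 bp away, where 20 of 27 sites were DMCs. Rxra was negative in both, at -24.7 and -25.8 points, the regions being 13216 bp apart inside the gene. Kng2 was positive in both, at 21.7 and 26.3 points. Dusp6 had -23.5 points in normal liver and, in tumors, 42.1 points in a region 29904 bp away (22 of 24 sites DMCs) and -21.0 points in another 45613 bp away. Tbca had -20.1 points in normal liver and 3 positive tumor regions, the nearest of them 5288 bp away with 28.5 points. Mir5046 had -30.3 points in normal liver and 21.1 points in a tumor region 3882 bp away. These pairs were noticed in the lists and carry no test.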
